A study of Mus musculus with 4 samples.

Results

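The genes of the endoplasmic reticulum secretory path and its stress response were examined in mammary tissue of mice labelled KO or WT for STAT5. The 55 genes were listed by name: stress sensors and their transcription factors, lumenal chaperones, disulfide isomerases, degradation factors, the protein translocon and the COPII coat. A gene was taken where a probe set of the array carried exactly its symbol, and was represented by the probe set with the highest mean log2 signal over the 4 arrays. This gave 52 of the 55 genes, out of 18193 genes with a probe set of their own. Ero1l, an oxidase that recharges disulfide isomerases, stands on the array under its current symbol Ero1a and so was not taken by the rule. Srp54a and Sec61g had no probe set that named them alone. Of the 52 genes 51 were bright enough to be tested, and Derl3 was not.

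Milk proteins, like all secreted proteins, enter the endoplasmic reticulum (ER) through the Sec61 translocon, are folded there by chaperones such as BiP (Hspa5), and leave in vesicles coated by COPII. When unfolded protein accumulates, the sensors IRE1 (Ern1), PERK (Eif2ak3) and ATF6 start the unfolded protein response (UPR), which acts largely through XBP1, ATF4 and ATF6 and raises chaperones and degradation factors. Mammary alveolar cells enlarge this system as they become secretory.

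The compared groups were 2 arrays of mammary tissue labelled STAT5 KO and 2 arrays labelled STAT5 WT, with tissue of 2 mice of each genotype per the design text, taken at a time given as 6 days. The labels state for both groups neither the strain, the age, the deleted gene or exon, nor a Cre driver. They name no treatment for either group. The values are MAS5 signals on a linear scale, with the same trimmed mean of 500 on every array. The brightest Stat5a probe set stood at 1836 and 861 on KO replicates 1 and 2, against 2307 and 2061 on the WT arrays, and that of Stat5b at 1069 and 712 in KO, against 1522 and 1506 in WT. Both were lower on both KO arrays, and neither passed the limma threshold (adjusted p = 0.246 and 0.102). General epithelial markers had a median log2 difference of -0.40, and relative to the mean of the WT arrays they stood at -0.68 on one KO array (replicate 1) and at -0.14 on the other (2 of 25 lower and 1 higher past the threshold). Their summed signal was 44339 and 68210 on the KO arrays, against 64722 and 68939 on the WT arrays. The list was not uniform. Krt7 was higher past the threshold (1.02), Ehf and Muc1 were lower (-1.78 and -1.29), and Krt8, Krt18 and Krt19 overlapped. The centring on epithelial markers used below takes the mean of this mixed list. Skeletal muscle markers summed to 10629 and 6377 on the KO arrays and to 1598 and 512 on the WT arrays. The median difference of the muscle markers was 2.68, with 5 of 10 tested higher past the threshold and 0 lower. In such tissue fewer cells of a type and less RNA per cell cannot be told apart. Plasma cells, which are also rich in ER, had 4 of 10 measured markers bright enough to test, and these did not move together. Irf4 stood at 741 and 2178 in KO, against 383 and 358 in WT, and Ighm at 1196 and 700 in KO, against 2072 and 1218 in WT. Jchain overlapped at 871 and 319 in KO and 895 and 264 in WT, as did Sdc1, and neither Irf4 nor Ighm passed. The other 6, Tnfrsf17 and Mzb1 among them, were too dim to test. The summed signal of the list was 6308 and 8290 in KO and 7227 and 6614 in WT. Macrophage markers summed to 38292 and 37460 in KO and to 32837 and 29859 in WT, with a median difference of 0.54 and 0 of 9 past the threshold. Basal markers had a median of -0.26, with 1 of 10 lower past the threshold. Relative to the mean of the WT arrays they stood at -0.80 on KO replicate 1 and at 0.04 on KO replicate 2. Their summed signal was 21976 and 33272 in KO and 30773 and 36287 in WT. The part of these cell types in the results was not tested.

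No gene of the ER set passed the threshold in either direction in the values as deposited. Of 51 genes tested by limma, 0 were higher and 0 lower in KO at an adjusted p under 0.05, where 1.21% of all 11360 tested genes were higher and 1.36% lower (138 and 154 genes, against 204 and 60 when centred on epithelial markers and 192 and 119 when centred on array medians). At an unadjusted p under 0.05, 3 were higher (Herpud1, Sel1l and Atf6; 10.4% of all tested genes) and 5 lower (Sdf2l1, Creb3l1, Hspa5, Hyou1 and Atf4; 10.8% of all tested genes). For 50 of the 51 the 95% interval of the difference lay inside 2-fold either way, against 83.5% of all tested genes. The exception was Herpud1, with an interval from 0.44 to 1.17 on the log2 scale. These intervals hold for the values as deposited. They were not recounted with the arrays centred on epithelial markers, which moves all differences upward. The standard error of the log2 difference was 0.14 in the median (range 0.11 to 0.23), against 0.17 over all tested genes.

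**Figure D1:**
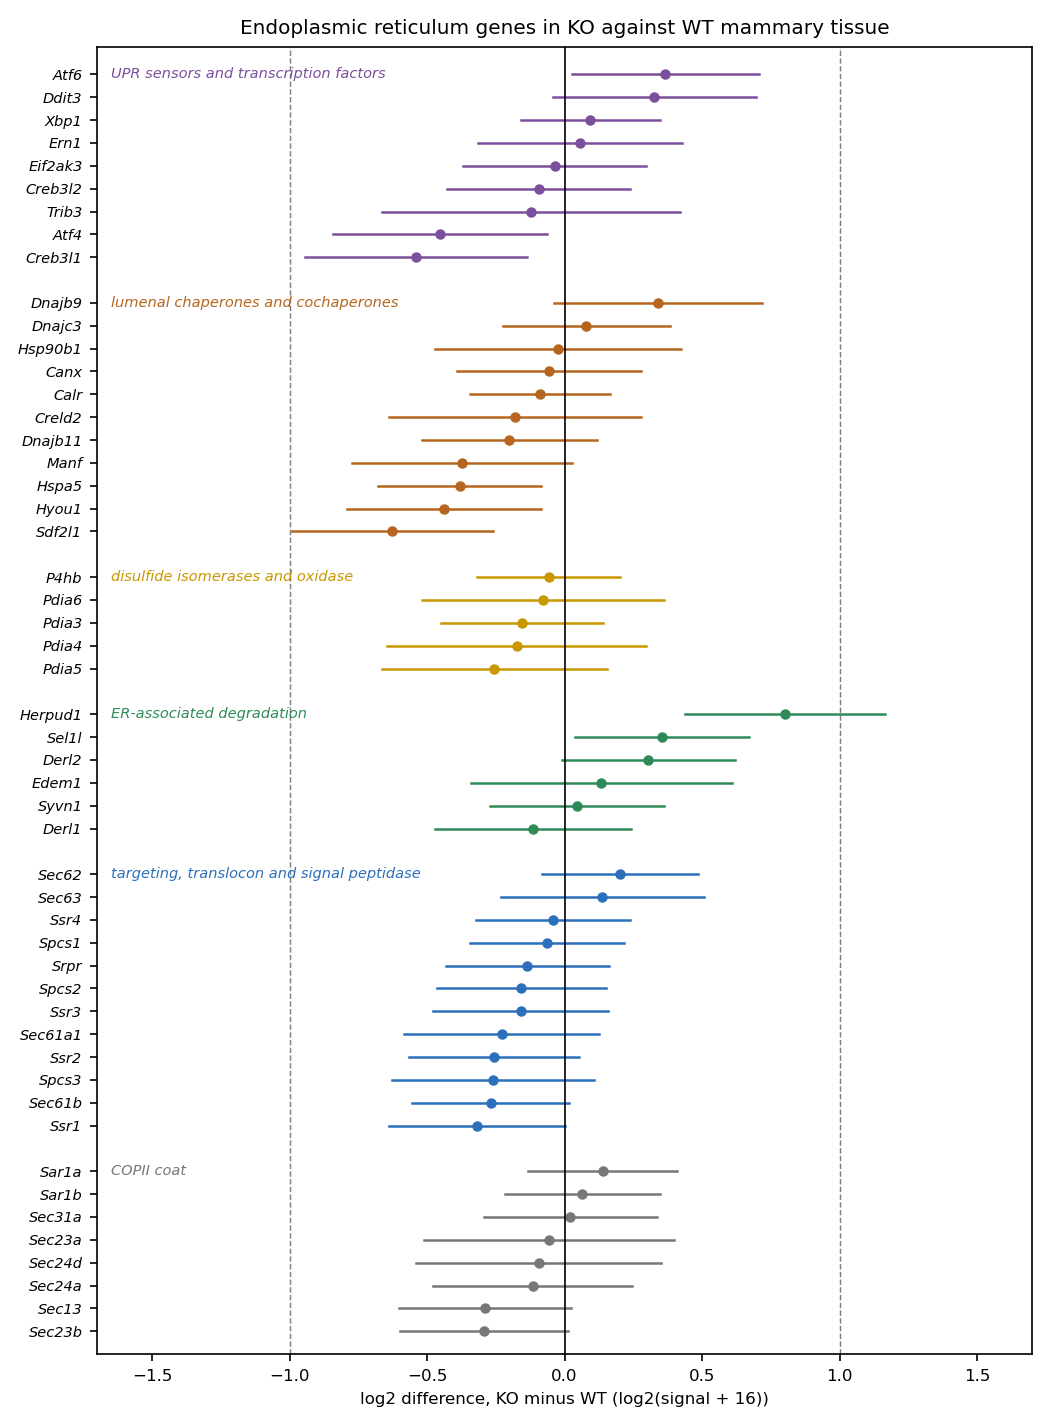
Log2 difference between KO and WT (x axis, log2(signal + 16)) for the 51 tested ER genes, grouped by role, with each point the difference of the means of 2 KO and 2 WT arrays and each line its 95% interval from limma; dashed lines mark 2-fold. Apart from Herpud1, all intervals lie between the dashed lines, and the degradation group sits furthest to the right, in the values as deposited.

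The set lay slightly below 0 as a whole. In the values as deposited 35 genes were lower and 16 higher in KO, with a median of -0.09 and a range from -0.63 to 0.80. The middle 50% of the genes ran from -0.24 to 0.06, against -0.21 to 0.19 for all tested genes, whose median was -0.01. Centring the arrays on the epithelial markers moved the median of all tested genes to 0.36 and that of the ER genes to 0.28, above 0. Such centring shifts all genes alike. The ER median less that of all tested genes was -0.08 in the values as deposited, -0.18 without WT replicate 1 and -0.03 without WT replicate 2. Both KO arrays lay below both WT arrays for 19 of the 51 (37.3%, against 27.5% of all tested genes), and above them for 11 (21.6%, against 26.2%). For the other 21 the genotypes overlapped.

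**Figure D2:**
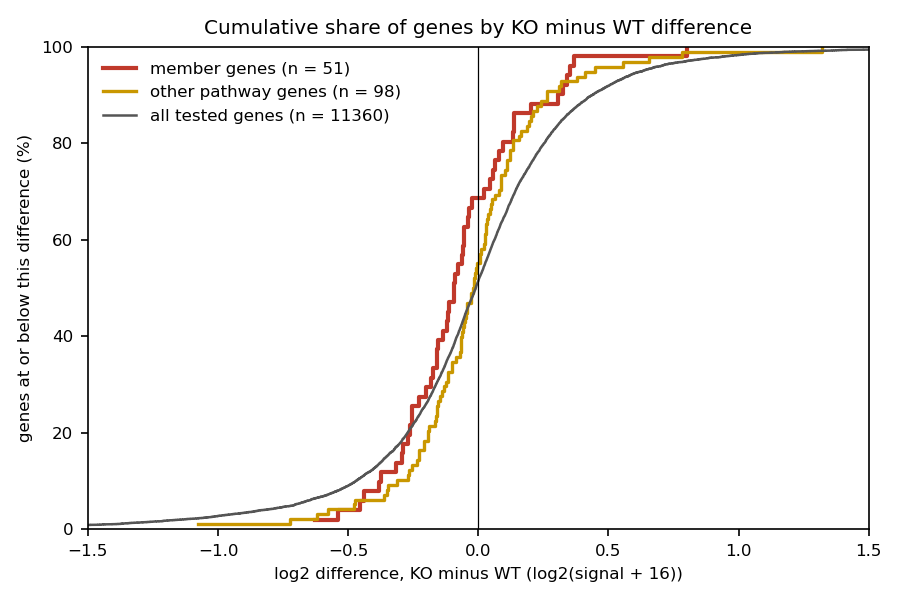
Cumulative percentage of genes (y axis) at or below a given log2 difference between KO and WT (x axis, log2(signal + 16)) for the 51 ER genes, 98 further genes of the pathway and all 11360 tested genes. The ER curve is steeper than that of all genes and lies to its left around 0, with a median of -0.09 against -0.01 in the values as deposited; after centring on epithelial markers both medians were above 0.

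Among the sensors and transcription factors of the UPR, Atf6 was higher on both KO arrays, and Creb3l1 and Atf4 were lower on both. Ern1 gave 585 and 678 on the KO arrays and 609 and 602 on the WT arrays, and Eif2ak3 978 and 929 in KO and 946 and 1011 in WT. The genotypes overlapped for both of these sensors. Atf6, whose protein is cut in the Golgi to release a transcription factor, stood at 1056 and 955 in KO, against 774 and 776 in WT. Both KO arrays were the higher ones, with a log2 difference of 0.37 ± 0.14 (SE; limma adjusted p = 0.224).

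Creb3l1, a factor related to ATF6 that acts in secretory and matrix-producing cells, had signals of 457 and 567 on the KO arrays and 716 and 782 on the WT arrays. The KO arrays were the lower ones (-0.54 ± 0.17, SE; limma adjusted p = 0.150). Atf4, the factor translated when PERK phosphorylates eIF2 alpha, stood at 2881 and 3852 in KO, against 4684 and 4458 in WT (-0.45 ± 0.16, SE; adjusted p = 0.195). KO replicate 1 was the lowest of the 4 arrays. The next brightest probe set of Atf4 showed 620 and 591 in KO and 834 and 945 in WT, a difference of -0.54. Both probe sets placed the KO arrays below the WT arrays.

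The other factors of the group were closer. Ddit3, which encodes the stress-induced factor CHOP, stood at 551 and 528 in KO and at 445 and 409 in WT, a log2 difference of 0.33 that its dimmer probe set did not share (-0.37, with overlapping genotypes). Xbp1, the factor made active when IRE1 splices its mRNA, had signals of 13042 and 13424 in KO and 12213 and 12583 in WT. Its KO arrays were the higher ones, by 0.09 on the log2 scale, with a 95% interval from -0.16 to 0.35. Spliced and unspliced Xbp1 were not separated here. Trib3, a pseudokinase gene induced by CHOP and ATF4, overlapped at 183 and 236 in KO and 261 and 198 in WT, as did Creb3l2, another relative of ATF6, at 1109 and 1249 in KO and 1270 and 1245 in WT. The dimmer probe sets of Trib3 (-0.24) and Creb3l2 (-0.41) had the KO arrays below. Of the 9 genes, 3 had both KO arrays above both WT arrays and 2 had them below, near the shares of all tested genes (26.2% and 27.5%). The median of the group was -0.04 in the values as deposited, and above 0 with the arrays centred on their medians (0.05) or on epithelial markers (0.33). All tested genes had medians of 0.07 and 0.36 with these centrings.

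Of 11 tested lumenal chaperones and cochaperones, none passed the threshold. In the values as deposited 9 had a difference below 0 (5848 of all 11360 tested genes did), and 6 had both KO arrays below both WT arrays (27.5% of all tested genes did), with a median of -0.18 in the values as deposited (0.19 when centred on epithelial markers, where all tested genes had 0.36). Sdf2l1, an ER-resident protein that works with BiP and its J-domain partners, was the lowest at 606 and 691 on the KO arrays, against 955 and 1064 on the WT arrays. The gap between genotypes was wider than that within either. Its log2 difference of -0.63 ± 0.15 (SE) left the KO mean at 64.2% of the WT mean (limma adjusted p = 0.0898, and 0.0792 to 0.774 over the alternatives run).

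Hspa5, which encodes BiP, the central Hsp70 chaperone of the ER, stood at 8449 and 9030 in KO and at 10578 and 12248 in WT. The KO arrays were the lower ones, by -0.38 ± 0.12 (SE; limma adjusted p = 0.161). Its second probe set gave -0.31 with the KO arrays below, and the genotypes overlapped on its dimmest. Hyou1, a large Hsp70 relative that exchanges the nucleotide of BiP, stood at 866 and 899 in KO, against 1109 and 1301 in WT (-0.44 ± 0.15, SE; adjusted p = 0.175). All 3 probe sets of Hyou1 had a difference below 0 (-0.62, -0.44 and -0.32). Manf, a secreted and ER-resident survival factor, stood at 1907 and 2533 in KO and at 2712 and 2995 in WT, with the KO arrays below.

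Among the J-domain proteins that hand substrates to BiP, Dnajb9 and Dnajb11 differed in sign. Dnajb9 gave 2759 and 3549 on the KO arrays and 2358 and 2582 on the WT arrays, the KO arrays higher. Dnajb11 gave 1088 and 1147 in KO and 1285 and 1286 in WT, the KO arrays lower. Dnajc3, which also restrains PERK, differed by 0.08, with 1680 and 1727 in KO and 1589 and 1635 in WT. The log2 differences of Dnajb9 and Dnajb11 were 0.34 and -0.20, and neither passed (limma adjusted p = 0.298 and 0.463).

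The brightest probe sets of the lectin chaperones and Hsp90b1 had differences close to 0. Calr and Canx, the lectin chaperones calreticulin and calnexin that hold glycoproteins, had log2 differences of -0.09 and -0.06. Calr stood at 10834 and 11031 in KO and 11728 and 11522 in WT. Canx stood at 6113 and 5534 in KO and 5483 and 6667 in WT. Only for Calr were the genotypes apart. Hsp90b1, the ER form of Hsp90 known as GRP94, gave 5442 and 5480 in KO and 4582 and 6726 in WT, so that the WT arrays enclosed the KO arrays, and its second probe set gave -0.27 with the KO arrays below. The difference of the brightest ran from -0.30 to 0.25 with an array left out. Creld2, a stress-induced disulfide isomerase-like protein, overlapped at 854 and 1101 in KO and 971 and 1248 in WT.

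**Figure D3:**
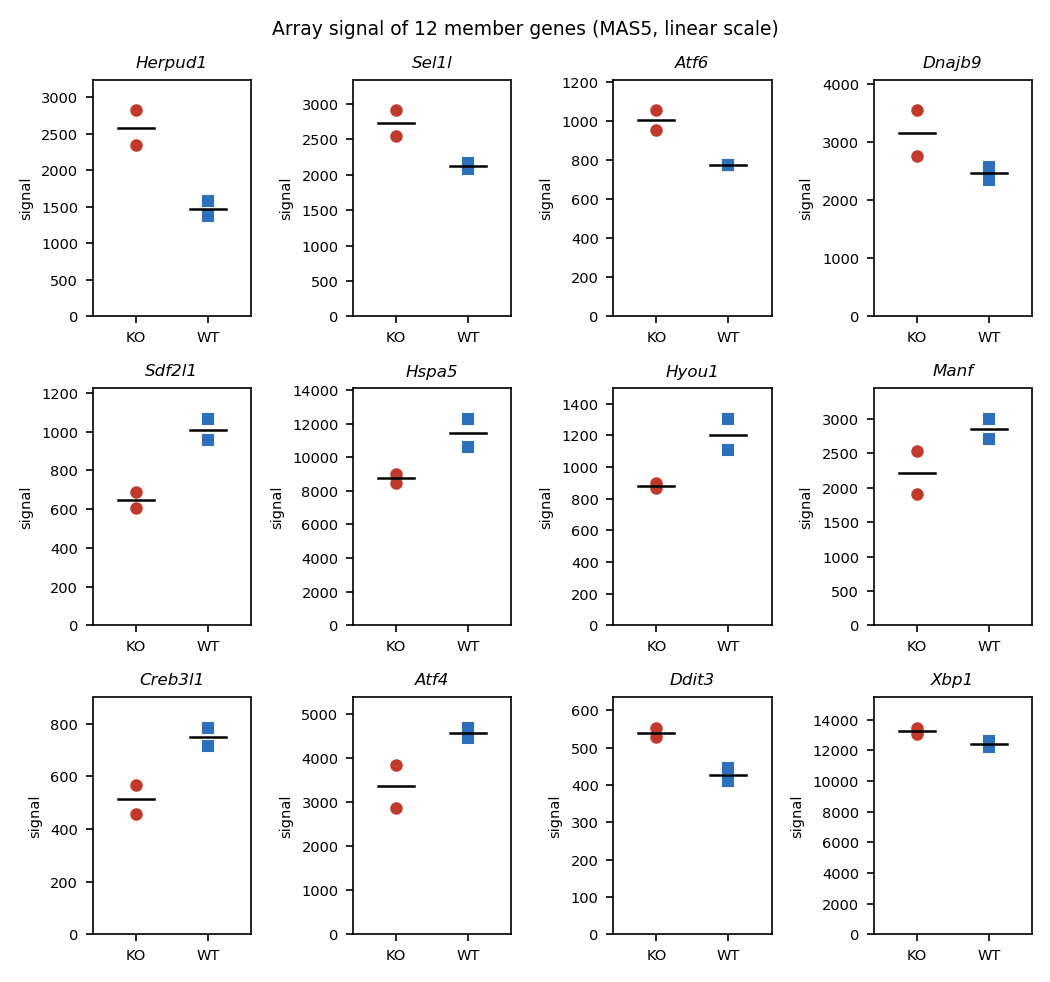
MAS5 signal (y axis, linear scale from 0) of 12 ER genes on each KO array (circles, left) and each WT array (squares, right), with horizontal lines at the mean of 2 arrays. The KO arrays sit above the WT arrays for Herpud1, Sel1l, Atf6, Dnajb9, Ddit3 and Xbp1 and below them for Sdf2l1, Hspa5, Hyou1, Manf, Creb3l1 and Atf4, in the values as deposited; centred on epithelial markers, which shifts all genes up, the differences of Manf, Hspa5 and Hyou1 were -0.0020, -0.011 and -0.068, and that of Ddit3 turned sign with the mean of its probe sets.

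All 5 measured disulfide isomerases had a difference below 0 in the values as deposited and above 0 when centred on epithelial markers, which shifts all genes alike, and each interval included 0. Pdia5 stood at 378 and 457 in KO, against 519 and 481 in WT (-0.26 ± 0.17, SE; limma adjusted p = 0.466). Pdia3, which serves calnexin and calreticulin, stood at 7554 and 7892 in KO and at 8006 and 9243 in WT (-0.16 ± 0.12, SE; adjusted p = 0.548). In both the KO arrays were below the WT arrays. Pdia4 overlapped, with 2058 and 2004 in KO and 1879 and 2795 in WT (-0.17 ± 0.20, SE; adjusted p = 0.683), the WT arrays being the ones apart from each other. P4hb, the classic protein disulfide isomerase, differed by -0.06 with an interval from -0.32 to 0.20, at 9715 and 10094 in KO and 10474 and 10147 in WT. Pdia6 was uneven within KO, at 3376 and 4872, against 4212 and 4357 in WT. Its dimmer probe set stood at 111 and 104 in KO and 155 and 158 in WT, a difference of -0.48 with the KO arrays below. The group median was -0.16 in the values as deposited and 0.21 when centred on epithelial markers, where all tested genes had 0.36. The oxidase gene Ero1l, read under Ero1a and outside the rule, overlapped at 975 and 894 in KO and 938 and 904 in WT.

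Factors of ER-associated degradation, which pull misfolded proteins back to the cytosol for the proteasome, were the only role group with a median above 0 in the values as deposited. The median over the 6 tested was 0.22, with 3 genes whose KO arrays both lay above both WT arrays and 0 whose KO arrays lay below (26.2% and 27.5% of all tested genes). Herpud1, a membrane protein that organises the HRD1 ubiquitin ligase complex, stood at 2351 and 2823 on the KO arrays, against 1577 and 1372 on the WT arrays. The genotypes were far apart, with the KO mean at 175% of the WT mean. The log2 difference of 0.80 ± 0.15 (SE) missed the threshold (limma adjusted p = 0.0545). It passed with each array centred on its median (0.88, limma adjusted p = 0.0443), where 192 of all tested genes were called higher and 119 lower. Without KO replicate 1 the difference was 0.93. Over all alternatives run the adjusted p reached 0.252. The other Herpud1 probe set read 2140 and 2793 in KO and 1494 and 1305 in WT, again a difference of 0.80 (adjusted p = 0.0653).

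Sel1l, the partner that stabilises HRD1, stood at 2544 and 2906 in KO, against 2166 and 2085 in WT (0.35 ± 0.13, SE; limma adjusted p = 0.212). The KO arrays were the higher ones here and on 3 of its other 4 probe sets, and the genotypes overlapped on the dimmest. Derl2, a member of the derlin channel family, stood at 1869 and 1896 in KO and at 1599 and 1447 in WT (0.30 ± 0.13, SE; adjusted p = 0.267), but its second probe set gave -0.03. Syvn1, which encodes the ligase HRD1 itself, overlapped at 1683 and 1604 in KO and 1527 and 1660 in WT. Edem1 and Derl1 overlapped as well, with log2 differences of 0.13 and -0.11. The second probe set of Edem1 had the opposite sign (-0.13, with overlapping genotypes). Derl3, the derlin too dim to test, stood at 101 and 94.4 in KO, against 135 and 149 in WT, so that including it with no filter brought the group median to 0.13.

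Of 12 tested genes that bring nascent proteins into the ER, none passed. In the values as deposited 10 had a difference below 0 (5848 of all 11360 tested genes did). For 6 both KO arrays lay below both WT arrays (27.5% of all tested genes did). The median as deposited was -0.16 (-0.08 with arrays centred on their medians, 0.21 when centred on epithelial markers). All tested genes had medians of 0.07 and 0.36 with these centrings. Ssr1, a subunit of the translocon-associated TRAP complex, stood at 4066 and 3705 in KO, against 4484 and 5226 in WT (-0.32 ± 0.13, SE; limma adjusted p = 0.259). Its second probe set, at 1401 and 1323 in KO and 1959 and 2095 in WT, gave -0.57 (adjusted p = 0.0784). The KO arrays were below the WT arrays on both.

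Sec61b, the beta subunit of the Sec61 channel, stood at 4206 and 4329 in KO and at 5381 and 4915 in WT (-0.27 ± 0.12, SE; limma adjusted p = 0.278). Ssr2, the beta subunit of TRAP, stood at 1935 and 2088 in KO, against 2322 and 2490 in WT (-0.26 ± 0.13, SE; adjusted p = 0.333). Both had the KO arrays below. Sec61a1, the pore of the channel, overlapped at 3340 and 3939 in KO and 3896 and 4641 in WT. All 6 of its probe sets had a difference below 0, and on most of them the KO arrays were below. Sec62 and Sec63, which assist translocation after synthesis and recruit BiP, were the 2 genes of this group above 0. Sec62 stood at 4209 and 3981 in KO and 3610 and 3503 in WT, with the KO arrays above, and Sec63 overlapped at 961 and 1091 in KO and 862 and 1001 in WT. All probe sets of Sec63 had a difference above 0. The next brightest, at 728 and 761 in KO and 521 and 636 in WT, gave 0.36 with the KO arrays above.

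The signal peptidase subunits Spcs1, Spcs2 and Spcs3 had log2 differences of -0.06, -0.16 and -0.26. The genotypes were apart for Spcs3, at 1571 and 1545 in KO against 1667 and 2096 in WT, and narrowly for Spcs2, at 3554 and 3991 in KO against 4019 and 4398 in WT. They overlapped for Spcs1. Srpr, the receptor of the signal recognition particle, stood at 3552 and 3400 in KO and 3629 and 4022 in WT, with the KO arrays below. Of the remaining TRAP subunits, Ssr3 differed by -0.16 and Ssr4 by -0.04, both with overlapping genotypes.

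COPII coat genes showed no common direction, with 2 of 8 lower and 2 higher on both KO arrays, near the 27.5% and 26.2% of all tested genes. Sec23b, an inner coat subunit that activates the Sar1 GTPase, stood at 1850 and 1705 in KO, against 2195 and 2164 in WT (-0.29 ± 0.13, SE; limma adjusted p = 0.270). Sec13, of the outer cage and also of the nuclear pore, stood at 2289 and 2028 in KO and at 2672 and 2602 in WT (-0.29 ± 0.13, SE; adjusted p = 0.283). For both the KO arrays were below the WT arrays. Sar1a and Sar1b, the GTPases that start the coat, were above, with Sar1a at 6226 and 6103 in KO, against 5454 and 5745 in WT (0.14 ± 0.11, SE; adjusted p = 0.561), and Sar1b at 3258 and 3291 in KO, against 3109 and 3153 in WT. Sec31a, the partner of Sec13 in the cage, differed by 0.02, with 2771 and 3180 in KO and 2865 and 2985 in WT. Sec23a, Sec24a and Sec24d overlapped, with differences of -0.06, -0.12 and -0.09. The group median was -0.08, and above 0 with arrays centred on their medians (0.01), when centred on epithelial markers (0.30) and without WT replicate 2 (0.06). All tested genes had medians of 0.07, 0.36 and -0.01 in these settings.

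Promoter windows were searched for elements known from the ER stress response. The ER stress element (ERSE), bound by ATF6 with NF-Y and also by XBP1, is CCAAT, 9 further bases and CCACG. In windows from 250 bases before to 50 bases after the annotated start, taken from RefSeq (GRCm38.p6), 44 of the 52 genes had 47 windows. An exact ERSE on either strand was found in 9 of these windows (19.1%), against 39 of all 32851 windows (0.119%). The genes were listed as ER and stress response genes, so this excess is not a result of the arrays. The matches are given to show the spacers between the fixed parts that were searched for, 5′ to 3′ along the strand of the element, with the fixed parts in capitals and the spacer in lower case. Hsp90b1 held 2 matches, of which the one nearer the start is given.
Hspa5: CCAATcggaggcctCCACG
Hsp90b1: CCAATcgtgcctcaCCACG
Calr: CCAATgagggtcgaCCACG
Canx: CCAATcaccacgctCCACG
Dnajc3: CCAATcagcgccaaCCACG
Creld2: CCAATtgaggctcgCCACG
Pdia6: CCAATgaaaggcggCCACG
Syvn1: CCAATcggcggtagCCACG
Derl3: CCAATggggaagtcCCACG

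Genes with and without an ERSE had nearly the same median difference. The 8 tested genes with a match had log2 differences from -0.38 (Hspa5) to 0.08 (Dnajc3), with a median of -0.07. The 35 tested genes with a window and no match ran from -0.63 to 0.80, with a median of -0.06. The related element ERSE-II is ATTGG, 1 base and CCACG, and was chosen after the differences were seen, so its matches are a description only. It was found in the windows of Herpud1 and Dnajb11, against 12 of all windows (0.0365%). These genes had differences of 0.80 and -0.20. The windows of Hspa5 and of Herpud1, the ER gene with the largest difference, are shown in the direction of transcription with the matches in capitals. The Hspa5 window lies at chr2:34771840-34772139 on the plus strand, with its ERSE starting 65 bases before the start. The Herpud1 window lies at chr8:94386179-94386478 on the plus strand, with its ERSE-II starting 52 bases before the start and, in capitals before it, a match on the opposite strand to the ATF4 element TGATGNAA.
Hspa5: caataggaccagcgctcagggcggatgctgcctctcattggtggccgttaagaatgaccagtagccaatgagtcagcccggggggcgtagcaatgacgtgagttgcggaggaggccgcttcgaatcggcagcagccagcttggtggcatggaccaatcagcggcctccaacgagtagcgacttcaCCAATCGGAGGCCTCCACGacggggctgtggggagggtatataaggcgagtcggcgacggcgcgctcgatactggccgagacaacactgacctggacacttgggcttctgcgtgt
Herpud1: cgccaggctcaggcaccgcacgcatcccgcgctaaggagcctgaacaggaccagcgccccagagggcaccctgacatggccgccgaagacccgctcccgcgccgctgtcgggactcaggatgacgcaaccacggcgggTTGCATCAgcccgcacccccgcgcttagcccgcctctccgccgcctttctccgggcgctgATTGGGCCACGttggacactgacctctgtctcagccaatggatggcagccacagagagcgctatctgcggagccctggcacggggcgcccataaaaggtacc

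Each of the other motifs matched 2 of the 47 windows (4.26%). The ATF4 element matched those of Herpud1 and Trib3, against 3.97% of all windows. The UPR element TGACGTGG, whose opposite strand holds the CCACG of the other elements, matched those of Sec23a and Sec24d, against 0.676% of all windows. The STAT motif TTCNNNGAA matched those of Eif2ak3 and Sec23b, against 8.30% of all windows. Eif2ak3 and Sec23b had log2 differences of -0.04 and -0.29. A match is a run of letters and was not tested as a binding site.

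Further genes of the same path, taken from lists outside the 55, also gave no call. Of 98 tested, 0 were higher and 0 lower past the threshold by limma, and 6 were higher and 6 lower at an unadjusted p under 0.05, shares below those of all tested genes (10.4% and 10.8%), with a median of -0.02. Asns, the asparagine synthetase induced by ATF4, stood at 4171 and 5328 in KO, against 2743 and 2720 in WT. The KO arrays were the higher ones, by 0.78 ± 0.15 (SE; limma adjusted p = 0.0546). Chac1, a glutathione-degrading enzyme also induced by ATF4, stood at 295 and 530 in KO, against 140 and 159 in WT (1.32 ± 0.29, SE; adjusted p = 0.0678). Without KO replicate 1, which leaves 1 KO array, the differences were 0.96 for Asns and 1.73 for Chac1. Asns and Chac1 had the smallest p of the 19 tested genes of this stress list. Of the 19, 7 had both KO arrays above both WT arrays and 7 had them below (26.2% and 27.5% of all tested genes). Among the latter were Atf3 (-0.58) and Sesn2 (-0.21).

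In the opposite direction, Fkbp11, a prolyl isomerase of secretory cells, stood at 233 and 336 in KO, against 591 and 625 in WT (-1.08 ± 0.21, SE; limma adjusted p = 0.0549). Without KO replicate 2, which leaves 1 KO array, the difference of Fkbp11 was -1.33. Kdelr3, a receptor that returns ER residents from the Golgi, stood at 445 and 577 in KO and at 726 and 987 in WT (-0.72 ± 0.21, SE; adjusted p = 0.128). Both had the KO arrays below the WT arrays. Among 17 genes of N-glycan transfer, trimming and recognition, 14 had a difference below 0 in the values as deposited (5848 of all 11360 tested genes did). The median was -0.10. Both KO arrays lay below both WT arrays for 6 and above them for 1 (27.5% and 26.2% of all tested genes). This list was not recounted with centring on epithelial markers, where all tested genes had a median of 0.36. The ones with the smallest p were Mogs, the first glucosidase of the path, with -0.48 (adjusted p = 0.191), and the cargo receptor gene Lman1 with -0.27 (adjusted p = 0.282).

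**Figure D4:**
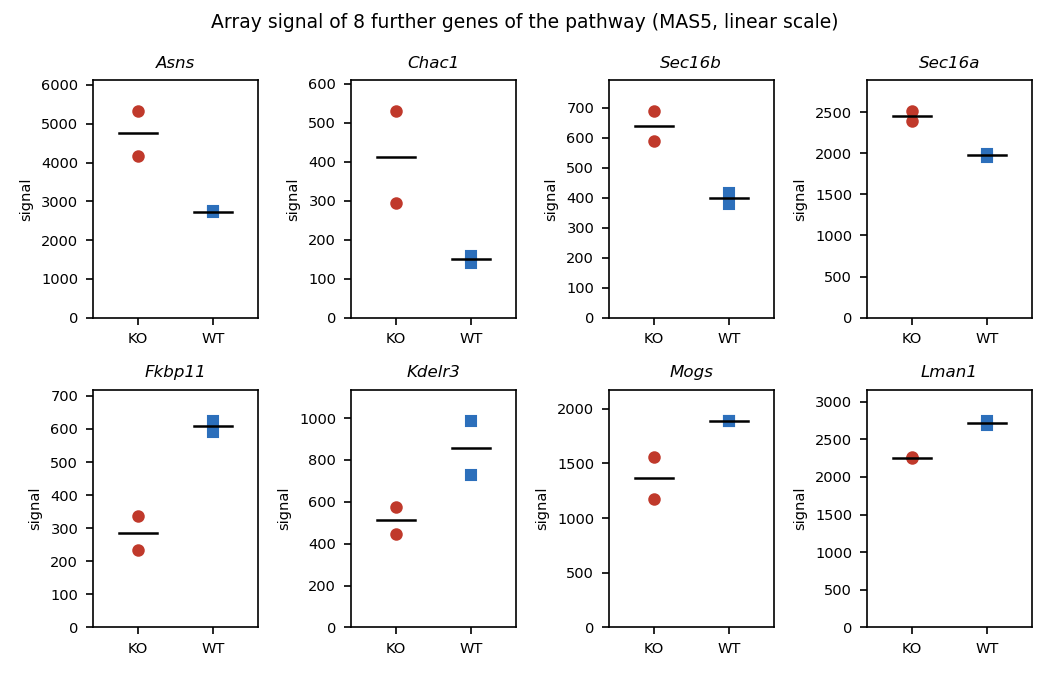
MAS5 signal (y axis, linear scale from 0) of 8 further genes of the ER path on each KO array (circles, left) and each WT array (squares, right), with horizontal lines at the mean of 2 arrays. Asns, Chac1, Sec16b and Sec16a are higher on both KO arrays and Fkbp11, Kdelr3, Mogs and Lman1 lower, in the values as deposited.

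The remaining lists had medians close to 0. Sec16b and Sec16a, which mark the ER exit sites where COPII forms, were higher on both KO arrays. Sec16b stood at 690 and 589 in KO, against 380 and 418 in WT (0.66 ± 0.17, SE; limma adjusted p = 0.0941), and Sec16a differed by 0.31 (adjusted p = 0.238). Over 19 genes of COPII and ER-Golgi cycling the median was 0.04. Over 13 further degradation genes it was 0.08, and the smallest p belonged to Selenok (0.26, adjusted p = 0.408) and Edem2 (0.22, adjusted p = 0.445). Over 12 further genes of targeting and signal peptide cleavage the median was -0.06, with Serp1 at -0.16 (adjusted p = 0.506) and Sec11a at -0.19 (adjusted p = 0.525). Over 18 further foldases and retention receptors it was -0.03.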

How the data were processed

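RNA of 4 mouse mammary samples (2 STAT5 KO, 2 STAT5 WT by the genotype labels) was measured on Affymetrix arrays. The deposited values are MAS5 signal intensities on a linear scale, per the submitters' processing notes; version and settings are not given in the sources used here. Of 45101 probe sets 64 were controls and were left out. Gene symbols came from the platform annotation, and older symbols of the further pathway lists were updated through RefSeq synonyms. Signals were taken as log2(signal + 16), a scale that understates differences of dim genes. The 22519 probe sets at or above the median mean log2 value (7.15) were tested with limma 3.58.1 in R 4.3.3 (lmFit, eBayes with trend), with Benjamini-Hochberg adjustment over all of them and a threshold of 0.05. With 2 residual degrees of freedom per probe set, the fit borrows spread across probe sets, and precision is limited by having 4 arrays; detection calls were not used. Counts of genes use 1 probe set per gene. A two-sided exact permutation test on 4 arrays gives a p of 0.333 at the lowest and was not used. No set test was run. The members and gene lists were chosen with earlier results of these data known, and the ERSE-II motif after the differences were seen. Full statistics were given for the 3 genes of each role group, and up to 2 genes of each further list, with the smallest p; all other members were given by values, differences or counts. The fit was tested on simulated data with changes larger than any seen in the ER genes. It does not show whether changes of the size seen here would be called. Alternatives were pseudocounts of 1 and 64, quantile normalization, centring on array medians or on epithelial markers, no filter, a filter at the 75th percentile, no variance trend, the mean of all probe sets, and leaving out each array with the tested probe sets kept.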

Additional observations from a re-analysis of the deposited data

How the results depend on the processing

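With all 4 arrays, no ER gene passed in the lower direction under any alternative. In the higher direction 1 passed (Herpud1), only with arrays centred on their medians. Without KO replicate 1 the difference of Herpud1 was 0.93. With an array left out, the lone array of its genotype is assumed to vary like the others. Of the 98 further genes, 1 was higher with median centring (Asns), 1 when centred on epithelial markers (Chac1), and 0 to 3 with an array left out, where 0 to 1 were lower. The ER median (-0.09) was -0.012 with median centring, 0.28 when centred on epithelial markers, and -0.19 to -0.043 with an array left out. With median centring, where all tested genes had 0.07, the role medians were 0.045 for UPR factors, -0.098 for chaperones, -0.074 for isomerases, 0.30 for degradation, -0.077 for translocon genes and 0.0064 for COPII. When centred on epithelial markers, where all tested genes had 0.36, they were 0.33 for UPR factors, 0.19 for chaperones, 0.21 for isomerases, 0.59 for degradation, 0.21 for translocon genes and 0.30 for COPII. With the mean of all probe sets they were -0.18 for UPR factors, -0.21 for isomerases and 0.11 for degradation, which was 0.13 with no filter. With an array left out the ranges were -0.048 to 0.064 for UPR factors, -0.30 to -0.10 for chaperones, -0.20 to -0.054 for isomerases, 0.16 to 0.28 for degradation, -0.22 to -0.10 for translocon genes and -0.23 to 0.063 for COPII. Both centrings shift all genes alike, so the 29 of 51 uncalled differences that turned sign with the epithelial one, and the 8 with the median one, were those nearest below 0. Elsewhere 0 to 6 turned. Over all tested genes 138 were called higher and 154 lower in the values as reported. The calls numbered 13 and 14 with no filter, 72 and 55 at the stricter filter, and 64 and 73 with no variance trend. They numbered 204 and 60 when centred on epithelial markers, 192 and 119 with median centring, and 99 and 99 on averaging the probe sets of a gene. Calls with an array left out are not counted, since 1 genotype then has 1 array. The causes were not tested. No paired analysis was possible because the labels give no replicate numbers; the numbers used here follow accession order and pair no samples.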
